A study of Homo sapiens with 16 samples.

Results

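The response of human T cells that lack exon 9 of HDAC7 to the phorbol ester PMA (phorbol 12-myristate 13-acetate) was measured by comparing 3 PMA-treated with 3 unstimulated libraries of the line called dE9, 6 of the 16 libraries of the series. All cells were JSL1, a clone of Jurkat, an established line of leukemic T cells. The dE9 line carries the label JSL1 HDAC7 E9-/- (genotype HDAC7 E9 knock-out), and was edited with CRISPR-Cas9 so that its own HDAC7 gene makes the protein without the peptide of exon 9. Treated cells received 20 ng/mL PMA and control cells growth medium, and the labels give 48 h for both, although the design text calls the unstimulated cells 0 h. For comparison, JSL1 cells of wild-type genotype (WT) gave 2 libraries with and 2 without PMA, and a line labelled as an HDAC7 E9 knock-in (iE9) gave 3 and 3. Nothing in the labels says whether libraries of a group came from separate cultures or clones, or whether a line is 1 clone. The p-values therefore cover only the spread of these libraries, which may be technical. Libraries with the same number in both treatments were treated as pairs, because their deviations from the group means correlated in each of the 3 dE9 pairs (r = 0.297, 0.305 and 0.24 across genes, which are not independent replicates).

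PMA stands in for diacylglycerol, the lipid messenger made below the T cell receptor, and activates protein kinase C and RasGRP proteins. These drive the Ras-MAPK cascade, whose targets include AP-1 and EGR transcription factors, and, through BCL10 and MALT1, NF-kB. HDAC7, a class IIa histone deacetylase abundant in thymocytes, represses genes bound by MEF2 factors, and is held in the cytoplasm by 14-3-3 proteins once kinases such as protein kinase D have phosphorylated it. Exon 9 of HDAC7 is the part that defines the line, so its sequence is shown, taken from the GENCODE release 29 transcripts, whose coordinates are GRCh38 (chr12:47795906-47796016, minus strand, coding, 111 nt or 37 codons, here all in lower case):
HDAC7 exon 9: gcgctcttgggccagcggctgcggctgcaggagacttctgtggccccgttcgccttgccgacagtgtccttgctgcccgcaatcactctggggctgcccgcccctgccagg

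Exon 9 was nearly absent from HDAC7 transcripts in dE9. The exon 9 share is the TPM (transcripts per 1e6, a level per length) of transcripts that hold the exon over the TPM of transcripts that span it. It was 2.14%, 0.84% and 7.37% in the unstimulated libraries 1, 2 and 3, and 0%, 0.68% and 0% in the PMA libraries, against 46.6% to 47.5% and 43.1% to 53.8% in WT without and with PMA. In estimated counts of whole transcripts, 0 of 1910 and 0 of 3386 counts in PMA libraries 1 and 3 were assigned to transcripts with the exon. Counting error alone would allow shares of up to 0.157% and 0.0886%. Unstimulated library 3 was highest, with 49 of 626 counts (7.83%, 95% Wilson interval 5.97% to 10.2%). Such intervals and limits cover counting error only. They are too narrow for the exon, because the counts are estimates for whole transcripts and not reads over the exon. The paired difference between PMA and unstimulated cells was -3.23 ± 3.72 percentage points (SD, n = 3 pairs), with an exact two-sided sign-flip permutation p of 0.25, the smallest that 3 pairs allow. In the knock-in line the share was 51.8% to 74.8% without PMA, above both unstimulated WT libraries, and 42.3% to 63.0% with PMA, where it overlapped WT. Those samples are called the libraries labelled iE9.

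The 6 dE9 libraries held 16554563 to 21888896 estimated counts. Mitochondrially encoded genes took 3.0% to 3.69% of counts without and 5.2% to 6.39% with PMA. The T cell markers CD3D and CD3E were detected in each of them, and their levels rose with PMA. Of the 12 T cell markers listed, 8 rose and 0 fell in the paired test described below. Not all were high or moved alike. LCK went from 300, 381 and 382 to 195, 356 and 387 TPM in pairs 1, 2 and 3, and CD2 ran from 0.054 to 5.46 TPM over the 6 libraries. PMA library 1 stood apart: on the first principal component of all 16 libraries, which carried 44% of the variance, it lay at 28 against 75 and 88 for PMA libraries 2 and 3, and the 3 unstimulated dE9 libraries lay between -86.7 and -75.8. The main counts are therefore given with and without pair 1, as are log2 fold changes of named genes that differ by more than 1.5-fold without it.

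PMA changed a large part of the measured transcriptome in dE9. Of 18073 genes tested, 8174 (45.2%) passed at an adjusted p under 0.05 (edgeR quasi-likelihood F test with Benjamini-Hochberg adjustment, the test behind every adjusted p here), of which 4065 (22.5%) rose and 4109 (22.7%) fell. The median over all genes tested was a log2 fold change of 0.046. Of the genes that passed, 4166 differed by at least 2-fold (2264 higher, 1902 lower) and 740 by at least 8-fold (536 higher, 204 lower). Without the pairing 6060 genes passed, 5937 of them also in the paired test, and without pair 1 8477 passed, 7327 of them in common with all 3 pairs. The PMA and unstimulated libraries did not overlap for 8155 genes (45.1%). Log2 fold changes are given with their standard error (SE), and levels as TMM-scaled counts per 1e6 (CPM) in libraries 1, 2 and 3, in that order.

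The size of the response differed between pairs. Among the 4166 genes that passed with at least 2-fold, the median absolute log2 difference was 1.26 in pair 1, 1.71 in pair 2 and 1.91 in pair 3, and it was smallest in pair 1 for 2630 genes (63.1%). Genes that fell differed most, with medians of -1.06, -1.63 and -1.94, while genes that rose had medians of 1.52, 1.79 and 1.88. Across all genes tested, the pair differences correlated at r = 0.607 for pairs 1 and 2, 0.562 for pairs 1 and 3 and 0.731 for pairs 2 and 3, a description over genes that share libraries and depth.

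**Figure D1:**
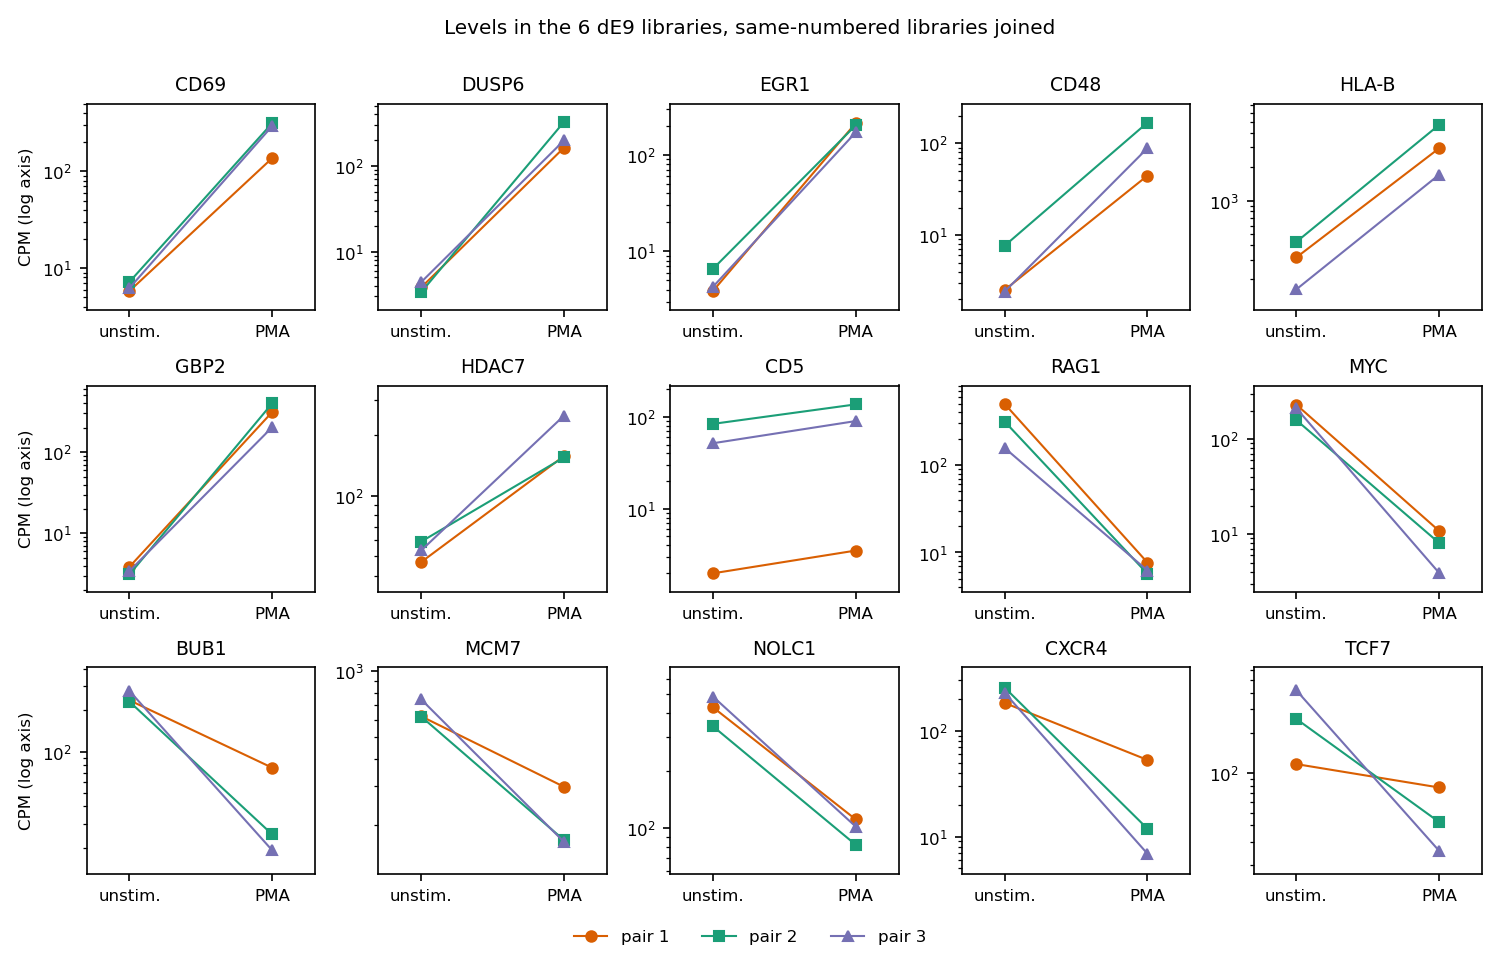
Levels of 15 genes in CPM (log axis) in the 3 unstimulated and 3 PMA libraries of dE9, with same-numbered libraries joined by a line. CD69, DUSP6 and EGR1 rose in all 3 pairs, BUB1, MCM7, CXCR4 and TCF7 fell least in pair 1, and CD5 started from a level in pair 1 (1.97) far under those of pairs 2 and 3 (84.1 and 51.7).

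HDAC7 itself rose with PMA in dE9. Its level was 46.8, 59.1 and 53.4 CPM in unstimulated libraries and 158, 155 and 251 CPM with PMA, with no overlap between the groups. The difference was 3.46-fold (log2 1.79 ± 0.16, adjusted p = 3.42e-05), and PMA library 3 was the highest. The gene (ENSG00000061273) lies on chromosome 12 from 47782722 to 47833132. Of 20 tested genes of the HDAC family, their co-repressors, MEF2 factors and NR4A receptors, 11 rose and 4 fell (2 fell without the pairing), with a median of 0.57. The count of falls was near the background, as 22.5% of all genes tested rose and 22.7% fell. HDAC5, another class IIa enzyme, rose from 12.4, 25.6 and 8.36 to 75.8, 84.6 and 68.4 CPM (log2 2.44 ± 0.24, adjusted p = 4.98e-05). HDAC9 also rose (log2 1.80 ± 0.58), whereas HDAC4, the remaining class IIa gene, fell slightly (-0.44 ± 0.16). HDAC9 did not pass without pair 1 (adjusted p = 0.0803). HDAC9 and HDAC4 did not pass without the pairing (adjusted p = 0.263 and 0.0763).

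Among class I enzymes, HDAC1 fell from 659, 693 and 726 to 476, 379.6 and 427 CPM (log2 -0.70 ± 0.09, adjusted p = 0.000273), and HDAC2 did not pass (-0.24 ± 0.13). NCOR1, a co-repressor that binds HDAC3, rose (log2 0.33 ± 0.11). MEF2A and MEF2D, the DNA-binding partners of HDAC7, rose by log2 0.66 ± 0.10 and 1.06 ± 0.17. NR4A1, an orphan receptor gene that HDAC7 is known to repress in thymocytes, was not called. Its levels were 4.31, 4.58 and 4.46 CPM without and 11.6, 10 and 1.92 CPM with PMA (log2 0.54 ± 0.44, adjusted p = 0.349), higher than control in PMA libraries 1 and 2 and lower in library 3. Its relatives NR4A2 and NR4A3 rose (log2 2.98 ± 0.58 and 4.11 ± 0.66). Of 7 tested genes for 14-3-3 proteins, 4 fell (YWHAE, YWHAG, YWHAH and YWHAQ) and YWHAZ rose (0 rose without the pairing and 2 without pair 1). YWHAE fell from 985, 849 and 895 to 518, 405 and 469 CPM (log2 -0.98 ± 0.08, adjusted p = 2.51e-05). NCOR1 did not pass without the pairing (adjusted p = 0.164).

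Genes of the pathway that PMA enters rose in part. Of 22 tested genes for protein kinase C, protein kinase D, RasGRP, diacylglycerol kinases and the BCL10-MALT1 complex, 9 rose and 3 fell, with a median log2 of 0.50. Over all genes tested 22.5% rose and 22.7% fell, so the count of falls was not above the background. PRKD2, a protein kinase D that phosphorylates class IIa deacetylases, rose from 56.7, 62.0 and 68.6 to 163, 180.0 and 222 CPM (log2 1.59 ± 0.11, adjusted p = 7.74e-06). DGKA, which removes diacylglycerol, rose from 61.4, 96.0 and 77.5 to 215, 396 and 566 CPM (2.24 ± 0.18), with the lowest PMA level in library 1. PRKCB rose by log2 1.10 ± 0.10, and BCL10 and MALT1 by 0.93 ± 0.17 and 0.84 ± 0.15. The 3 that fell were RASGRP1 (-1.71 ± 0.19), the main Ras activator below the T cell receptor, PRKCA (-1.0 ± 0.18) and DGKD (-0.64 ± 0.10). PRKCQ, the protein kinase C isoform of the immune synapse, did not pass (0.33 ± 0.16). PRKCQ passed without pair 1 (adjusted p = 0.016).

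Feedback inhibitors of the MAPK cascade were among the strongest responders. Of 18 tested, 15 rose and 1 (DUSP7) fell, with a median log2 of 2.14. DUSP6, a phosphatase specific for ERK, was at 3.82, 3.37 and 4.40 CPM in unstimulated and 163, 325 and 198 CPM in PMA libraries (log2 5.84 ± 0.25, adjusted p = 8.74e-07). All PMA levels were far above all control levels, and library 2 was highest. SPRY4 and DUSP4, which act on Ras-ERK signalling, rose by 4.61 ± 0.48 and 3.66 ± 0.45. RASAL3, a Ras GTPase-activating protein of lymphocytes, rose from 22.7, 42.3 and 27.1 to 214, 526 and 668 CPM (3.83 ± 0.23), and PHLDA1 rose from 5.05, 4.91 and 3.90 to 49.8, 53.1 and 48.9 CPM (3.46 ± 0.28). DUSP1, an immediate-early phosphatase, did not pass (-0.02 ± 0.28). Without pair 1, SPRY4 had a log2 value of 5.64.

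Of 22 tested AP-1 and EGR genes, 14 rose and 2 fell (1 without the pairing), with a median of 1.29. EGR1, a zinc-finger factor encoded by an immediate-early gene, was at 3.88, 6.59 and 4.29 CPM without and 214, 203 and 171 CPM with PMA (log2 5.33 ± 0.20, adjusted p = 8.74e-07). The 3 pairs differed little for this gene, with log2 differences of 5.74, 4.92 and 5.28. EGR2 rose from 0.431, 0.608 and 0.621 to 18.1, 39.8 and 16.3 CPM (5.42 ± 0.25), and EGR3 rose by 3.21 ± 0.32. FOS rose by 3.05 ± 0.86, while JUN, JUNB and JUND rose by 0.84 ± 0.23, 1.30 ± 0.13 and 0.68 ± 0.14. FOSB and FOSL2 did not pass (0.43 ± 0.47 and 0.01 ± 0.30). IER3, an immediate-early gene of survival signalling, rose from 5.05, 6.31 and 8.58 to 114, 214 and 285 CPM (4.89 ± 0.15), the smallest adjusted p of the list (2.91e-07). Without pair 1, FOS had a log2 value of 2.04. FOS did not pass without pair 1 (adjusted p = 0.0627). JUN and JUND did not pass without the pairing (adjusted p = 0.0812 and 0.137).

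The promoter of EGR1 is shown because the gene is a known target of serum response factor, which binds CArG boxes with ternary complex factors activated by ERK. The sequence runs from 250 bases before to 30 bases after the start in RefSeq (GRCh38.p14, chr5:138465229-138465508, plus strand), 5′ to 3′, and the capitals mark the 2 CArG boxes that a search of both strands found:
EGR1: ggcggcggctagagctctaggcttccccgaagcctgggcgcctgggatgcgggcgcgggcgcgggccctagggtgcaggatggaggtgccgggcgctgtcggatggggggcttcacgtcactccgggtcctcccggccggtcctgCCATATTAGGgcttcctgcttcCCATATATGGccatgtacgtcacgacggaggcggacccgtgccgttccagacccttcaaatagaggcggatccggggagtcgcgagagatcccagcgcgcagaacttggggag
Such a box was found in 1.3% of 27305 RefSeq promoters of 300 bases (250 before to 50 after the start), in 1.1% of the promoters of tested genes and in 2 of 17 matched promoters of AP-1 and EGR genes. The AP-1 motif TGANTCA was in 5.2% of promoters of genes that rose, against 4.6% of those of all genes tested. A match is a description of letters, not of binding.

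NF-kB genes rose more moderately. Of 19 tested, 11 rose and 1 fell (NFKBIB, not without the pairing), with a median of 0.70. RELB, the subunit of the non-canonical pathway, rose from 4.38, 4.30 and 4.07 to 16.9, 23.9 and 24.5 CPM (log2 2.34 ± 0.21, adjusted p = 3.33e-05). NFKB1 rose by 1.74 ± 0.34, BCL3 by 5.36 ± 0.68 and the feedback inhibitor TNFAIP3 by 2.65 ± 0.27. REL, RELA and NFKBIA did not pass (0.05 ± 0.35, 0.01 ± 0.10 and 0.08 ± 0.15). CYLD and TRAF1 rose by 1.40 ± 0.11 and 2.32 ± 0.23. Without pair 1, NFKB1 had a log2 value of 2.35.

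Most genes of the T cell receptor and its signalling complex rose. Of 26 tested, 19 rose and 0 fell, with a median log2 of 0.84. LAT, the membrane adaptor that links ZAP-70 to Ras and calcium signalling, was at 15.8, 188 and 116 CPM without and 279, 964 and 890.3 CPM with PMA (log2 3.11 ± 0.27, adjusted p = 2.8e-05). Unstimulated library 1 was far under the other control libraries, and it also had the lowest PMA partner. LCP2, which encodes SLP-76, rose from 72.9, 101 and 56.9 to 439, 437 and 446 CPM (2.56 ± 0.15). CD3D and CD3E rose by 1.04 ± 0.09 and 0.74 ± 0.11, and TRAC, the alpha chain constant region, by 3.63 ± 0.39. LCK, the Src-family kinase of the receptor, did not pass (-0.27 ± 0.12). Without pair 1, TRAC had a log2 value of 2.96.

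Of 26 tested co-receptors and inhibitory receptors, 20 rose and 1, CD8A, fell (0 without the pairing, 2 without pair 1), with a median log2 of 2.86. It was 2.79 with CTLA4, which had 0 control counts, at the bound that a floor of 3 counts per library gives. CD28, the main co-stimulatory receptor, was at 13.7, 48.3 and 6.10 CPM without and 239, 743 and 185 CPM with PMA (log2 4.30 ± 0.20, adjusted p = 1.28e-06). The pairs kept their order, with pair 2 highest before and after PMA. CD48, a ligand of CD2 and CD244, rose from 2.53, 7.67 and 2.43 to 44.5, 168 and 88.6 CPM (4.59 ± 0.19). BTLA rose from 0.431, 1.59 and 1.52 to 6.30, 101 and 65.1 CPM (5.48 ± 0.33), with PMA library 1 lowest. The inhibitory receptor PDCD1 rose by 4.35 ± 0.80, and the co-stimulatory receptor ICOS by 4.05 ± 0.56. CD4 rose (2.52 ± 0.90) and CD8A fell (-1.24 ± 0.24), while CD8B did not pass (-1.76 ± 0.74). Without pair 1, PDCD1, ICOS and CD8B had log2 values of 3.59, 4.84 and -2.58. CD8B passed without pair 1 (adjusted p = 0.0241).

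CD5, a negative regulator of receptor signalling in thymocytes, showed how pairs could differ at baseline. It was at 1.97, 84.1 and 51.7 CPM without and 3.49, 137 and 90.3 CPM with PMA, and the groups overlapped because both libraries numbered 1 were low. Each pair rose, by log2 differences of 0.79, 0.71 and 0.80, and the paired test called it (0.77 ± 0.14, adjusted p = 0.00163). Without the pairing it was not called (adjusted p = 0.592).

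Of 15 tested activation antigens, 8 rose and 3 fell, with a median of 0.86. Over all genes tested 22.5% rose and 22.7% fell, so the count of falls was near the background. CD69, an early activation antigen that retains lymphocytes in tissue, was at 5.79, 7.20 and 6.21 CPM without and 137, 316 and 295 CPM with PMA (log2 5.21 ± 0.20, adjusted p = 8.74e-07). No PMA library overlapped a control library, and PMA library 1 was lowest. CD40LG, the ligand by which helper T cells activate B cells, rose from 7.89, 2.43 and 1.69 to 163, 111 and 86.5 CPM (5.11 ± 0.38). IL2RA, the alpha chain of the interleukin-2 receptor, was at 0.185, 0.0467 and 0 CPM without and 12.9, 12.3 and 0.395 CPM with PMA (6.76 ± 0.44, adjusted p = 6.93e-06). PMA library 3 stayed near control levels for this gene. TFRC, the transferrin receptor of growing cells, fell (-1.42 ± 0.16), as did CD109 (-2.83 ± 0.29) and TNFRSF8 (-2.05 ± 0.28). Without pair 1 the control libraries held 1 count of IL2RA, so no fold is given.

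Cytokine receptor chains rose in 17 and fell in 1 (IFNGR2, not without the pairing) of 27 tested genes, with a median of 1.13. IL2RG, the shared gamma chain, rose from 133, 149 and 151 to 335, 403 and 427 CPM (log2 1.43 ± 0.09, adjusted p = 4.65e-06). IL4R rose from 12.3, 7.48 and 6.83 to 39.8, 37.9 and 31.2 CPM (2.07 ± 0.17), and TGFBR2 by 3.01 ± 0.39. IL7R did not pass (0.59 ± 0.56). Of 16 tested cytokines and chemokines, 8 rose and 0 fell, with a median of 3.19. With the 3 genes at 0 in control cells (IL3, TNF and CSF2) at their bound, the median was 1.70. IL16, a chemoattractant for CD4+ cells, rose from 4.01, 6.08 and 9.04 to 94.4, 269.9 and 387 CPM (5.19 ± 0.21). TNFSF10, which encodes the death ligand TRAIL, rose from 2.77, 0.888 and 0.621 to 31.0, 28.3 and 17.7 CPM (4.32 ± 0.38). CSF2, which encodes GM-CSF, had 0 counts in the 3 control libraries and 38 in the PMA libraries, a level at least 3.58-fold higher against a floor of 3 counts per library. IL2 and TNF did not pass (adjusted p = 0.125 and 0.0967). Without pair 1, TGFBR2, IL7R and TNFSF10 had log2 values of 3.62, 1.47 and 4.91. IL7R passed without pair 1 (adjusted p = 0.00874).

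Integrins and their ligands rose in 13 and fell in 1 of 21 tested genes, with a median of 1.0. ITGB2, the beta chain of LFA-1, was at 30.6, 179 and 114 CPM without and 163, 677 and 382 CPM with PMA (log2 2.02 ± 0.14, adjusted p = 1e-05). Library 1 was lowest in each treatment, so the groups overlapped although every pair rose. ICAM3 rose from 97.1, 103 and 78.3 to 323, 345 and 289.7 CPM (1.79 ± 0.11), and its relative ICAM1 by 2.02 ± 0.42. ITGB3 fell (-2.11 ± 0.38).

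Of 24 tested homing and chemokine receptor genes, 7 rose and 4 fell (2 without the pairing), with a median of 0.59, and the share called was close to the 45.2% of all genes tested. CCR7, the lymph node homing receptor, rose by log2 3.64 ± 0.44. CCR4 rose from 3.51, 5.47 and 1.41 to 25.8, 218 and 83.1 CPM (4.71 ± 0.50) and GPR183, an oxysterol receptor, from 0.370, 0.514 and 0.169 to 41.0, 33.0 and 8.02 CPM (6.19 ± 0.31). CXCR4, the receptor of CXCL12, was at 184, 257 and 229 CPM without and 53.1, 11.9 and 6.89 CPM with PMA (-3.74 ± 0.56, adjusted p = 0.000535). It fell least in pair 1. KLF2, a factor that maintains T cell quiescence and trafficking, also fell (-2.42 ± 0.58). Without pair 1, CCR4, CXCR4 and KLF2 had log2 values of 5.50, -4.72 and -3.43. KLF2 did not pass without the pairing (adjusted p = 0.0502).

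Of 35 tested actin cytoskeleton regulators, 20 rose and 6 fell (2 without the pairing), with a median of 0.86. Over all genes tested 22.5% rose and 22.7% fell, so the count of falls was not above the background. CORO1A, an actin-binding protein of lymphocytes, rose from 673, 1159 and 809 to 1880.4, 3429.7 and 2308 CPM (log2 1.52 ± 0.10, adjusted p = 7.87e-06). The exchange factors ARHGEF1 and ARHGEF2 rose by 1.49 ± 0.12 and 1.26 ± 0.09. TMSB4X, which binds monomeric actin, had one of the 8 largest differences in mean CPM, from 1703, 2052 and 1821 to 5795, 9918 and 6273 CPM (1.94 ± 0.11). RAC2, the Rac of blood cells, rose (1.35 ± 0.13) and RAC1 fell (-0.97 ± 0.10).

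Most recombination and pre-T cell genes fell with PMA. Of 14 tested rearrangement and CD1 genes, 10 fell and 2 rose (CD1C and LIG4), with a median of -1.85. Only 8 fell without pair 1, and also 8 without the pairing. The medians of pairs 1, 2 and 3 were -2.16, -1.95 and -0.83. CD1A, CD1B and CD1E fell in pairs 1 and 2 but rose in pair 3, from 66.3, 22.3 and 81.6 to 83.0, 26.5 and 94.3 TPM. The PMA and unstimulated libraries did not overlap for 6 of the 14 genes, against 45.1% of all genes tested. RAG1, an endonuclease subunit of V(D)J recombination, was at 499.5, 314 and 157 CPM without and 7.68, 5.71 and 6.21 CPM with PMA (log2 -5.51 ± 0.26, adjusted p = 1.5e-06). Control levels differed widely, with library 1 highest, but all PMA levels were close to each other. RAG2, its partner, fell from 51.0, 30.6 and 19.5 to 0.965, 0.783 and 0.452 CPM (-5.48 ± 0.30). DNTT, the terminal transferase, and PTCRA, the pre-T alpha chain, fell by log2 values of -3.86 ± 0.44 and -3.29 ± 1.01. C11orf74 also fell, from 10.9, 10.6 and 23.7 to 0.0919, 0.553 and 0.339 CPM (-5.45 ± 0.46). It lies on chromosome 11 from 36594493 to 36659290 on the plus strand and overlaps RAG2 (36575574 to 36598279, minus strand), and strandedness is not given in the sources used here, so its value is uncertain. PTCRA did not pass without pair 1 (adjusted p = 0.0711). PTCRA did not pass without the pairing (adjusted p = 0.137).

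Of 38 tested thymocyte transcription factors, 17 rose and 8 fell, with a median of 0.58, where 22.5% of all genes tested rose and 22.7% fell, so the count of falls was near the background. GATA3, which directs CD4 lineage choice, rose from 81.7, 74.5 and 55.9 to 353, 425 and 331 CPM (log2 2.40 ± 0.12, adjusted p = 2.17e-06), and ZBTB7B, which encodes the CD4 lineage factor ThPOK, by 4.33 ± 0.52. LEF1 rose from 307, 607 and 483 to 852, 1957 and 1771 CPM (1.68 ± 0.09), whereas its relative TCF7 fell from 116, 254 and 418 to 77.3, 42.4 and 25.7 CPM (-2.41 ± 0.53). TCF7 fell least in pair 1. TOX2 rose from 3.02, 5.66 and 7.96 to 133, 110.0 and 528 CPM (5.27 ± 0.39). The E proteins TCF3 and TCF12 fell (-1.03 ± 0.14 and -1.04 ± 0.16). Without pair 1, ZBTB7B and TCF7 had log2 values of 4.97 and -3.29.

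LMO2, which encodes a LIM-only adaptor of blood cell transcription factors, rose from a very low level. It was at 0, 0.140 and 0.113 CPM without and 7.17, 18.0 and 8.70 CPM with PMA (log2 6.94 ± 0.40, adjusted p = 3.61e-06). LYL1, a basic helix-loop-helix factor gene, was at 0.555, 0.561 and 0.339 CPM without and 56.1, 15.4 and 0.565 CPM with PMA (4.82 ± 0.91, adjusted p = 0.00201), and PMA library 3 lay near control levels. In the NOTCH pathway 6 of 21 tested genes rose and 6 fell (3 without the pairing), with a median of 0.18, close to the 22.5% and 22.7% of all genes tested that did. NOTCH3 fell from 43.9, 77.8 and 46.5 to 10.9, 13.5 and 6.27 CPM (-2.46 ± 0.29), HES4 fell (-3.17 ± 0.40), and the ligand gene DLL1 rose from 0.123, 0.140 and 0.452 to 9.38, 12.4 and 7.29 CPM (5.33 ± 0.50). Without pair 1, LYL1 and HES4 had log2 values of 3.42 and -3.79.

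Genes of cell division fell in every pair, and by very different amounts. All 39 tested mitosis genes and all 39 tested DNA replication genes fell, where 22.7% of all genes tested did. The mitosis median over pairs 1, 2 and 3 was -1.01, -3.25 and -4.20 on the log2 scale, and the replication median -0.91, -2.52 and -3.24, against -1.94 and -1.91 (mitosis) in the 2 WT pairs. Medians over all genes tested were 0.03, 0.01 and 0.00 in the 3 dE9 pairs. Pair 1 had the smallest fall of the 3 pairs for 39 of 39 mitosis and 38 of 39 replication genes. In these bulk samples, fewer dividing cells and less RNA per cell cannot be told apart.

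The summed level of the 39 mitosis genes shows the spread. It was 4090, 4267 and 4078 TPM in the 3 unstimulated dE9 libraries and 2076, 496 and 323 TPM with PMA, while WT went from 4220 and 3896 to 1207 and 1181 TPM. The control libraries were thus close together, and PMA library 1 lay above and PMA libraries 2 and 3 under the WT PMA libraries. BUB1, a kinase of the spindle checkpoint, was at 236, 231 and 275 CPM without and 76.4, 25.1 and 19.2 CPM with PMA (log2 -2.88 ± 0.35, adjusted p = 0.000158). BUB1B fell from 180.4, 135 and 166 to 50.2, 9.44 and 7.68 CPM (-3.34 ± 0.42), and MAD2L1, another checkpoint gene, from 129, 149 and 150.0 to 43.1, 22.7 and 12.9 CPM (-2.60 ± 0.31). CDC20, PLK1, AURKB and BIRC5, which act at or after entry into mitosis, fell by log2 values of -3.52 ± 0.55, -3.30 ± 0.51, -3.23 ± 0.59 and -3.30 ± 0.59. CDC25B fell least of the list (-1.02 ± 0.24). Without pair 1, BUB1, BUB1B, CDC20, PLK1, AURKB and BIRC5 had log2 values of -3.52, -4.12, -4.50, -4.23, -4.27 and -4.36.

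**Figure D2:**
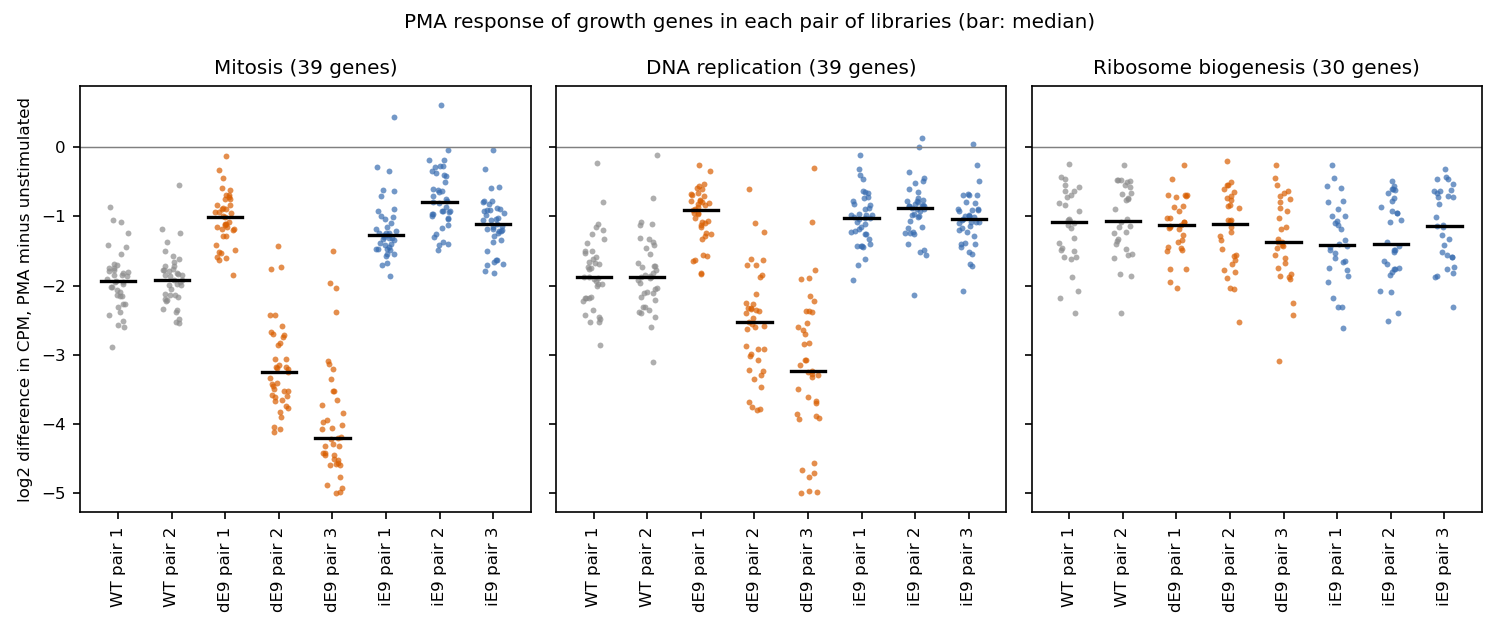
Log2 difference in CPM between PMA and unstimulated libraries for each gene of 3 lists (points) in the 8 pairs of the series, with the median of a pair as a bar (iE9 stands for the libraries labelled iE9). Mitosis medians in dE9 were -1.01, -3.25 and -4.20, while ribosome biogenesis medians were -1.13, -1.11 and -1.37.

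Among replication genes, RFC3, a clamp loader subunit, was at 102, 89.1 and 96.2 CPM without and 28.6, 11.7 and 7.51 CPM with PMA (log2 -2.78 ± 0.28, adjusted p = 6.27e-05). MCM7, of the replicative helicase, fell from 625, 623 and 745 to 298, 170.5 and 167 CPM (-1.70 ± 0.18). POLD2, a subunit of polymerase delta, fell from 333, 349 and 376 to 94.1, 66.3 and 58.1 CPM (-2.30 ± 0.15). PMA library 1 was the highest PMA library for each of the 3. RPA1, a single-strand binding protein used also in repair, fell least among those named (-0.42 ± 0.10). RPA1 did not pass without the pairing (adjusted p = 0.107).

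Promoters of 4 of these genes are shown because the lists share short motifs that the choice of list members did not use. The 4 genes were taken from members whose promoters hold the motifs marked, so they are not unselected examples. The mitosis genes BUB1 (chr2:110678034-110678313, minus strand) and MAD2L1 (chr4:120066819-120067098, minus strand) and the replication genes RFC3 (chr13:33817899-33818178, plus strand) and MCM7 (chr7:100101368-100101647, minus strand) are printed from 250 bases before to 30 after the RefSeq start, 5′ to 3′ along the gene. Capitals mark TTNGAA (the CHR element) and CCAAT in the mitosis genes, and TTTNNCGC (an E2F motif) in the replication genes, each on either strand, and a CHR and a CCAAT match overlap in MAD2L1:
BUB1: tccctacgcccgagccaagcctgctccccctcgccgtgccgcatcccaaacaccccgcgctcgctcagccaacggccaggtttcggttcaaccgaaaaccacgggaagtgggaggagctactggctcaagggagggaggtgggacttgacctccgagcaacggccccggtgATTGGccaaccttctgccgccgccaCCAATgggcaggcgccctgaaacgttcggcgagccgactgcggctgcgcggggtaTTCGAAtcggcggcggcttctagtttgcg
MAD2L1: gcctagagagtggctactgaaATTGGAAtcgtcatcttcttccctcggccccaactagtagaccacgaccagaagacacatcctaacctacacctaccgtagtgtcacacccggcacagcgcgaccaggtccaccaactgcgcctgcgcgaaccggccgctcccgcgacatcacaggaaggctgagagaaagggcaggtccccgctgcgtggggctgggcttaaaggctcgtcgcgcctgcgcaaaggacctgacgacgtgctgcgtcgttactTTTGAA
RFC3: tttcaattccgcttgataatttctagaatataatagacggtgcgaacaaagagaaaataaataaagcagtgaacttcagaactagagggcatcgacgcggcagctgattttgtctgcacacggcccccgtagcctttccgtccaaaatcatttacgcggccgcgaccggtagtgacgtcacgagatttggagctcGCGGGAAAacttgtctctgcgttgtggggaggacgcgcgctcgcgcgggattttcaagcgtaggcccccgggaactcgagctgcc
MCM7: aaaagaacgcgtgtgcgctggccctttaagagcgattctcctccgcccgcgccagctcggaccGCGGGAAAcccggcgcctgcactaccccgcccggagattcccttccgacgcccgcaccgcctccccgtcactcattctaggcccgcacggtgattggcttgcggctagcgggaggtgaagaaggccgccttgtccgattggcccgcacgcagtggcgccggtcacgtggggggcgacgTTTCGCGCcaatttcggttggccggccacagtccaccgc
In windows of 250 bases before to 50 after the start, TTNGAA was found in 26 of 34 matched mitosis promoters (76.5%), against 34.9% of all 27305 promoters, 24.4% of those of tested genes and 4 of 33 replication promoters (12.1%). CCAAT was found in 76.5% of mitosis and 57.6% of replication promoters, against 35.7% of all. TTTNNCGC was found in 20 of 33 replication promoters (60.6%) and in 11.8% of mitosis promoters, against 6.9% of all and 10.2% of those of tested genes. These are counts of letters, and no binding was measured.

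Regulators of the G1 phase moved in both directions, with 8 of 24 tested higher (5 without the pairing), 13 lower and a median of -0.83. CDKN1A, which encodes the inhibitor p21, rose from 3.45, 2.10 and 0.621 to 14.5, 20.5 and 13.9 CPM (log2 3.13 ± 0.41, adjusted p = 0.000235). CDK4 fell from 237, 163 and 234 to 97.0, 52.6 and 73.2 CPM (-1.53 ± 0.11). CCND1 and CCND2 rose (2.98 ± 0.93 and 2.67 ± 0.57) and CCND3 and CCNE2 fell (-1.29 ± 0.27 and -2.62 ± 0.56). E2F1, E2F2, E2F7 and E2F8, E2F factors of the cell cycle, fell by log2 values of -2.67 ± 0.62, -3.11 ± 0.51, -3.62 ± 0.59 and -3.02 ± 0.68. BTG1, an antiproliferative gene, rose from 15.8, 17.1 and 12.9 to 137, 172 and 90.2 CPM (3.09 ± 0.15). Without pair 1, CDKN1A, CCND1, CCND2, CCNE2, E2F1, E2F2, E2F7 and E2F8 had log2 values of 3.72, 1.34, 3.66, -3.73, -3.73, -4.06, -4.73 and -4.37. CCND1 did not pass without pair 1 (adjusted p = 0.333).

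MYC, a driver of growth and ribosome production, was among the 8 genes with the largest fall at a mean of at least 5 CPM in control libraries. It was at 230.3, 158 and 211 CPM without and 10.8, 8.06 and 3.90 CPM with PMA (log2 -4.77 ± 0.29, adjusted p = 4.69e-06). All PMA levels lay far under all control levels, in pair 1 as well. TERT, the telomerase reverse transcriptase, fell from 3.45, 23.9 and 4.46 to 0.735, 0.507 and 0.113 CPM (-4.19 ± 0.66), and ODC1 from 451, 419.9 and 380.1 to 173, 150.5 and 117 CPM (-1.52 ± 0.11). Of 15 tested genes of the MYC network, 8 fell (5 without the pairing) and 3 rose (MAX, MXD1 and MXD4), with a median of -0.48. The count of rises was near the background, as 22.7% of all genes tested fell and 22.5% rose. Without pair 1, TERT had a log2 value of -5.46.

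All 30 tested ribosome biogenesis genes fell, by similar amounts in the 3 pairs, whose medians were -1.13, -1.11 and -1.37. NOLC1, a nucleolar chaperone of small nucleolar RNPs, was at 428, 340.4 and 486 CPM without and 111, 81.9 and 102 CPM with PMA (log2 -2.08 ± 0.12, adjusted p = 3.57e-06). FBL, the methyltransferase fibrillarin, fell from 400.2, 404 and 429 to 154, 135 and 114 CPM (-1.62 ± 0.11). Pair 1 therefore did not stand apart here as it did for mitosis genes, with the smallest fall for 16 of 30 genes. Promoters of FBL (chr19:39846350-39846629, minus strand) and MRTO4 (chr1:19251555-19251834, plus strand) are shown, in the same window and build as above, because CACGTG, the E-box that MYC with MAX can bind, recurs in this list. Both genes were taken from members whose promoter holds CACGTG. Capitals mark it:
FBL: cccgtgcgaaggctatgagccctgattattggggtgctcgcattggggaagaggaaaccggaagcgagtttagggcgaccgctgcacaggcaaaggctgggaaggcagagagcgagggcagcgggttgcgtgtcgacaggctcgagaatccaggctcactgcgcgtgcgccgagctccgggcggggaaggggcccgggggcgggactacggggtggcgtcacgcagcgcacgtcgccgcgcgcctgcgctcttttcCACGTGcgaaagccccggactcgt
MRTO4: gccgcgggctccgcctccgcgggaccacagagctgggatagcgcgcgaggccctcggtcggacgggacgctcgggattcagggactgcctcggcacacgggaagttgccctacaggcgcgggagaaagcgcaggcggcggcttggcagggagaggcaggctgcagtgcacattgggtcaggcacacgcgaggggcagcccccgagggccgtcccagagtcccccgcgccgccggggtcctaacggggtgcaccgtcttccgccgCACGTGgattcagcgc
CACGTG, searched on both strands, was found in 11 of 25 matched promoters of the list (44.0%), against 7.4% of all promoters and 10% of those of tested genes.

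Biosynthetic genes fell with them. Of 29 tested genes for nucleotide and one-carbon synthesis, 28 fell and 0 rose, with a median of -1.69. PAICS, a purine synthesis enzyme, fell from 578, 459.7 and 566 to 139, 113 and 90.3 CPM (log2 -2.24 ± 0.13, adjusted p = 3.33e-06). IMPDH2, which makes guanine nucleotides, fell from 378, 288 and 339 to 108, 79.6 and 69.5 CPM (-1.98 ± 0.14). PHGDH and PSAT1, which make serine, fell by log2 values of -2.65 ± 0.28 and -2.28 ± 0.13. The deoxynucleotide genes RRM2 and TYMS, also expressed with S phase, fell by log2 values of -3.43 ± 0.70 and -3.10 ± 0.55. Without pair 1, RRM2 and TYMS had log2 values of -4.58 and -4.04.

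Of 25 tested tRNA synthetase and ATF4 target genes, 15 fell and 3 rose, with a median of -0.53. IARS fell from 452, 377 and 441 to 121, 156 and 169 CPM (log2 -1.52 ± 0.13), and ASNS, the asparagine synthetase, rose (2.14 ± 0.39). Of 13 amino acid transporter genes, 6 fell and 3 rose, where 22.7% of all genes tested fell and 22.5% rose, so the rises were near the background. SLC7A1 fell from 189, 152 and 199 to 88.6, 52.6 and 40.1 CPM (-1.64 ± 0.20). Of 28 cholesterol and fatty acid genes, 16 fell (9 without the pairing) and 2 rose (1 without the pairing), with a median of -0.51. FASN, the fatty acid synthase, fell from 466, 409 and 447 to 207, 152 and 141 CPM (-1.42 ± 0.12).

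Glycolysis genes fell in 14 and rose in 4 of 23 tested cases, with a median of -0.78. Over all genes tested 22.7% fell and 22.5% rose, so the count of rises was not above the background. ENO1, an enolase, fell from 3996, 2692 and 3139 to 1847, 1096 and 750.2 CPM (log2 -1.49 ± 0.16, adjusted p = 7.29e-05). LDHA fell by log2 values of -2.03 ± 0.23. Among transporters, SLC2A3 rose from 7.21, 14.7 and 7.34 to 46.6, 138 and 128 CPM (3.35 ± 0.24) and SLC2A1 fell (-1.06 ± 0.15), and the lactate exporter SLC16A3 rose from 17.9, 14.2 and 9.04 to 76.7, 56.2 and 35.5 CPM (2.02 ± 0.13).

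Of the 8 genes with the largest drop in mean CPM, 4 encode heat shock proteins, a group for which no list was counted. HSP90AB1 fell from 3251, 3155 and 3417 to 1175, 1114 and 1132 CPM (log2 -1.52 ± 0.11), and HSPD1, of mitochondria, from 1677, 1414 and 1496 to 460.0, 328 and 317 CPM (-2.07 ± 0.10). HSP90AA1 and HSPA8 fell by log2 values of -1.63 ± 0.12 and -1.25 ± 0.14. TUBA1B, a tubulin gene, fell from 2242, 2153 and 2424 to 1115, 333 and 237 CPM (-2.37 ± 0.36), least in pair 1. Without pair 1, TUBA1B had a log2 value of -3.03.

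Genes of MHC class I presentation rose in 15 and fell in 2 (CANX and CALR, 1 of them without the pairing) of 22 tested cases, with a median of 1.29. HLA-B rose from 313, 430.1 and 163 to 2903, 4684 and 1694 CPM (log2 3.34 ± 0.12, adjusted p = 8.74e-07), with pair differences of 3.21, 3.44 and 3.37. Classical HLA genes are near-identical to each other and could exchange reads, so their separate values are uncertain. HLA-E rose from 69.0, 106 and 55.1 to 597, 1335 and 619.5 CPM (3.42 ± 0.14), and B2M, the light chain, by 1.85 ± 0.11. NLRC5, the transactivator of class I genes, and TAP1, a peptide transporter, rose by 2.10 ± 0.22 and 1.68 ± 0.15.

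The HLA-B promoter (chr6:31357150-31357429, minus strand, in the RefSeq reference and not read from these cells) is shown because class I promoters are known to hold an NF-kB site. Capitals mark an NF-kB motif found by 2 overlapping matches:
HLA-B: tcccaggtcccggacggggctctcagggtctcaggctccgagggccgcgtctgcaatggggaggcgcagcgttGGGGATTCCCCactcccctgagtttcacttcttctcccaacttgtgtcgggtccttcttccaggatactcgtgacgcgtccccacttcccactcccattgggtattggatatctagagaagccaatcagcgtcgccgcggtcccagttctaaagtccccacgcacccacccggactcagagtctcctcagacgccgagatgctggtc
This motif was in 6 of 18 matched promoters of the list (33.3%), against 10.8% of all promoters and 13.0% of those of tested genes.

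Interferon response genes rose in 26 and fell in 2 (IFIT1 and IFI16) of 36 tested cases, with a median of 1.29. GBP2, a guanylate-binding protein, was at 3.88, 3.13 and 3.44 CPM without and 313, 399.9 and 203 CPM with PMA (log2 6.41 ± 0.33, adjusted p = 2.49e-06). MX2 rose from 4.93, 5.28 and 3.61 to 37.0, 65.9 and 53.9 CPM (3.48 ± 0.20). ISG15 and IFI6, which are typical targets of type I interferon, did not pass (0.28 ± 0.11 and 0.51 ± 0.27). GBP4 had 1 count in the 3 control libraries together and 561 in the PMA libraries, a ratio of 507 with a 95% counting interval of 90.7 to 20079. Its PMA levels were 2.90, 20.5 and 2.99 CPM, so the ratio rests mostly on PMA library 2. The interval covers counting error only and not this spread.

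Cytotoxic genes rose in 8 and fell in 0 of 15 tested cases, with a median of 1.39. GZMA, which encodes granzyme A, was at 17.3, 5.09 and 3.78 CPM without and 579.7, 107 and 100.2 CPM with PMA (log2 4.74 ± 0.20, adjusted p = 8.74e-07), and library 1 was highest in both treatments. PRF1, which encodes perforin, rose from 0.801, 1.12 and 0.226 to 16.5, 10.7 and 10.6 CPM (4.18 ± 0.43). GZMB did not pass (-0.23 ± 1.07). KLRB1, a receptor of natural killer and some T cells, passed, and went from 0, 0.0467 and 0.113 to 0, 2.44 and 7.40 CPM, with 0 in PMA library 1.

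Of 33 tested lysosomal genes, 16 rose and 2 fell (PPT1 and PSAP), with a median of 0.46. Without pair 1, 16 rose and 7 fell, and without the pairing 10 rose and 1 fell. SMPD1, the acid sphingomyelinase, rose from 6.41, 4.67 and 2.32 to 29.9, 25.2 and 26.6 CPM (log2 2.68 ± 0.24), and CTSB and CTSS, both cathepsins, by 1.13 ± 0.12 and 3.23 ± 0.41.

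Of 27 tested genes of the BCL2 family and death receptors, a list that mixes antiapoptotic and proapoptotic members, 14 rose and 3 fell, with a median of 0.60. CFLAR, which blocks death receptor signalling, rose from 20.9, 17.0 and 17.3 to 74.8, 79.1 and 85.9 CPM (log2 2.12 ± 0.13, adjusted p = 5.82e-06). BCL2L1, which is antiapoptotic, rose by 1.06 ± 0.15, and the proapoptotic BMF rose from 2.65, 2.62 and 3.05 to 20.9, 12.5 and 20.9 CPM (2.67 ± 0.25). BID and BCL2L11, which are proapoptotic, fell by log2 values of -1.05 ± 0.11 and -1.45 ± 0.18. Of 19 tested p53 target genes, 12 rose and 2 fell, with pair medians of 0.11, 1.07 and 1.02. TP53INP1 rose from 3.64, 3.08 and 2.94 to 21.6, 33.8 and 49.5 CPM (3.37 ± 0.27), while MDM2 did not pass (-0.34 ± 0.14). MDM2 passed without pair 1 (adjusted p = 0.00727).

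Splicing regulators fell in 25 and rose in 3 (6 without pair 1) of 40 tested cases, with a median of -0.45. SRSF1, an SR protein, fell from 572, 610.2 and 566 to 290.0, 227 and 211 CPM (log2 -1.28 ± 0.11, adjusted p = 2.14e-05), and HNRNPC from 1073, 1158 and 1005 to 584, 586 and 517 CPM (-0.94 ± 0.08). CELF2 rose from 151, 172 and 124 to 464, 720.4 and 743 CPM (2.09 ± 0.18), as did HNRNPLL, a regulator of CD45 splicing in activated T cells (1.08 ± 0.17), and the kinase gene CLK1 (0.62 ± 0.10). Of 28 histone-modifying enzymes, 11 fell and 6 rose, with a median of -0.14, where 22.5% of all genes tested rose. EZH2, the Polycomb methyltransferase, fell from 222, 226 and 239 to 124, 71.4 and 78.1 CPM (-1.37 ± 0.15), and EED and SUZ12 fell with it (-1.15 ± 0.17 and -0.98 ± 0.13). KDM5B, a demethylase of H3K4, rose from 106, 85.6 and 91.1 to 243, 287 and 356 CPM (1.64 ± 0.14).

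Of the 13 mitochondrially encoded genes, 11 rose and 0 fell in the paired test, with pair medians of 1.07, 0.46 and 0.33. Without the pairing 0 rose, and without pair 1 9 rose and 2 fell. MT-CO1, a subunit of cytochrome oxidase, was at 5967, 6509 and 6816 CPM without and 12171, 10773 and 9869.9 CPM with PMA (log2 0.76 ± 0.10, adjusted p = 0.000206, and 0.11 without the pairing). The groups did not overlap, and PMA library 1 was highest.

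**Figure D3:**
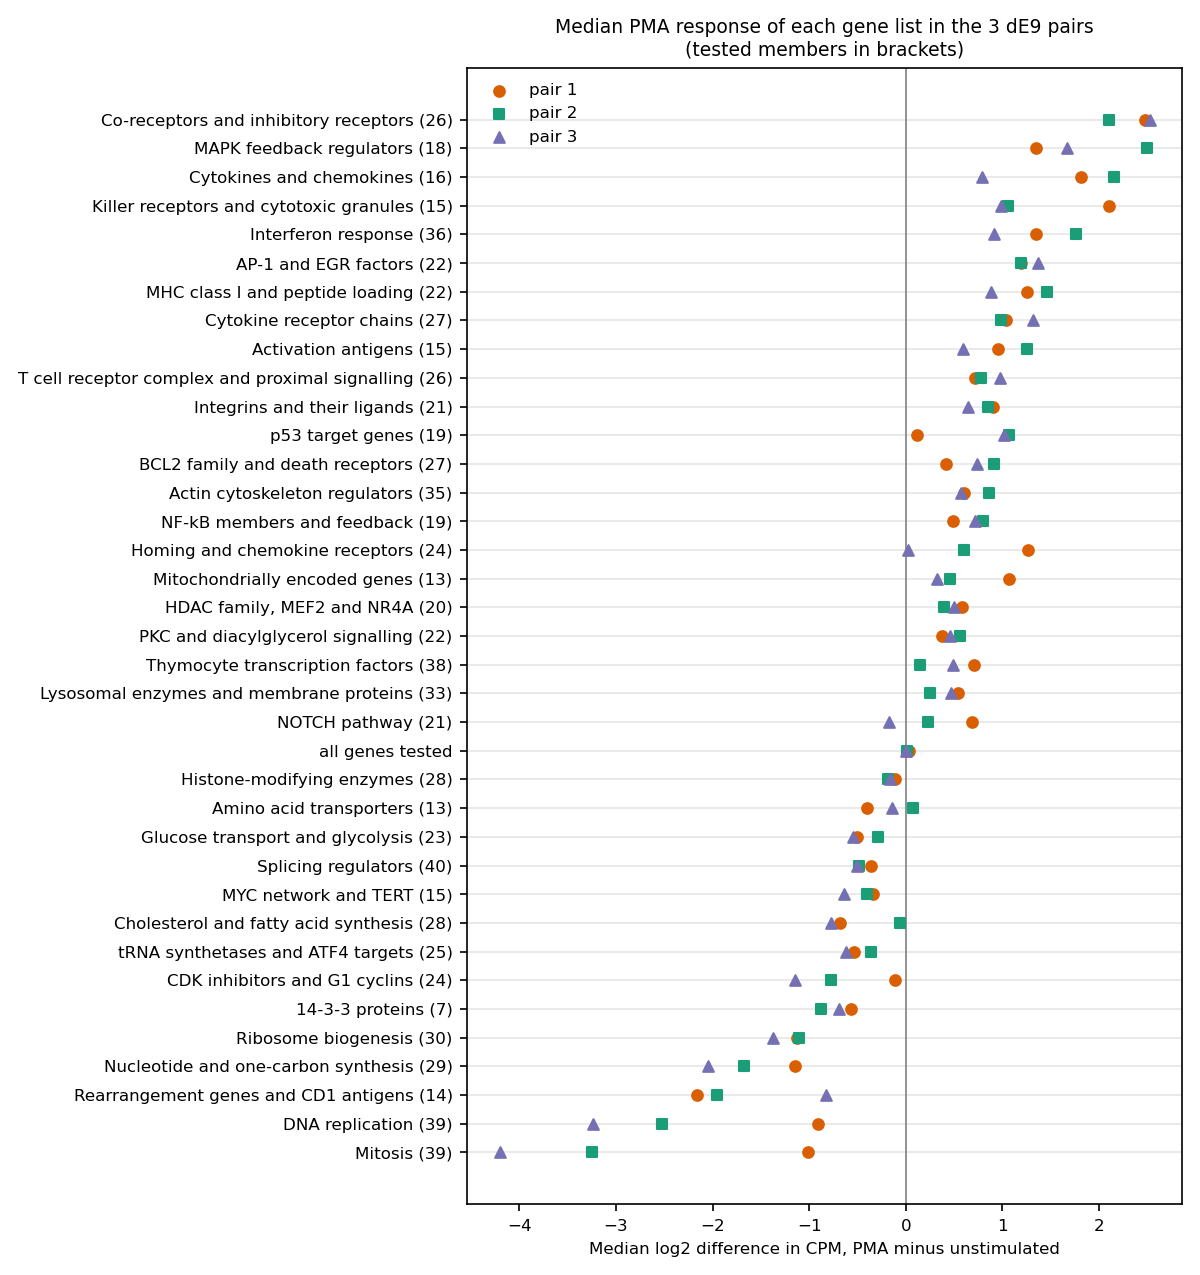
Median log2 difference in CPM between PMA and unstimulated libraries for the tested members of 36 gene lists (number in brackets) and for all genes tested, in each of the 3 dE9 pairs. Mitosis and DNA replication lists were lowest in pairs 2 and 3 and most spread between pairs, and the median over all genes tested lay near 0 in each pair.

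Among the 8 genes per direction with the largest folds and 5 or more mean CPM in the group with more, those not yet described were KRT3, KRT79, PGLYRP4 and CCDC198 for the rise and TSHR, DCLK3 and FA2H for the fall. KRT3, a keratin gene, went from 0.123, 0.0935 and 0.113 to 40.5, 9.44 and 22.1 CPM (log2 7.57 ± 0.56, adjusted p = 1.17e-05), although keratin genes resemble each other and their counts are uncertain. TSHR, the thyrotropin receptor, fell from 48.1, 68.4 and 108 to 1.98, 3.87 and 2.15 CPM (-4.76 ± 0.26). PGLYRP4, which encodes a peptidoglycan recognition protein, had 1 control count and 368 PMA counts, a ratio of 333 with a 95% counting interval of 59.4 to 13183. Its PMA levels were 4.18, 10.7 and 2.54 CPM, a spread that the interval does not cover.

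Genes whose pairs differed most or least were picked by the SD of their 3 pair differences, at a mean of at least 10 CPM for the most spread and a log2 fold of at least 2 for the least. The myoglobin gene MB was at 0.246, 0.187 and 0.169 CPM without and 63.0, 9.07 and 0.904 CPM with PMA (log2 6.23 ± 0.92, adjusted p = 0.00049), highest in PMA library 1 and lowest in PMA library 3. NCAM2, a neural adhesion gene, was at 1.91, 0.561 and 0.960 CPM without and 1.33, 7.83 and 48.9 CPM with PMA (3.15 ± 0.99), highest in PMA library 3 and not raised in library 1. Both were called although PMA libraries differed from each other by more than 30-fold in CPM. Among the 6 least spread by this rule were BCL6, a repressor of lymphocyte differentiation, which rose from 5.92, 5.42 and 3.05 to 48.2, 41.7 and 22.7 CPM (2.95 ± 0.18), and POLR3G, an RNA polymerase III subunit, which fell from 55.0, 39.4 and 36.6 to 9.88, 7.74 and 6.44 CPM (-2.44 ± 0.13). Without pair 1, MB and NCAM2 had log2 values of 4.50 and 4.88.

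The response of dE9 was compared with that of WT by the difference of the PMA coefficients. None of 18073 genes passed (0.0%) with all pairs, 496 had an unadjusted p under 0.05, and the smallest adjusted p was 1.0, while DESeq2 called 1 gene. The nearest were CCR2 (-1.98 ± 0.35 on the log2 scale, with responses of 3.91 in dE9 and 5.90 in WT), GZMA (-1.77 ± 0.32) and ECM1 (-2.44 ± 0.45), none of which passed. ECM1, an extracellular matrix gene, was at 1.91, 1.50 and 1.92 CPM without and 3.68, 1.89 and 2.37 CPM with PMA in dE9 (log2 0.53 ± 0.28, adjusted p = 0.145), against a response of 2.97 in WT.

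Without pair 1, 215 of 17833 genes passed (1.21%). By the signed log2 value, the response was higher in dE9 than in WT for 31 of them and lower for 184 (1.03% lower). The lower ones included 29 of 39 mitosis and 13 of 39 DNA replication genes, of which 0 passed with all pairs. For these genes lower means a larger fall in dE9 than in WT. For BUB1 the difference was -0.56 ± 0.51 with all pairs and -1.19 ± 0.22 without pair 1 (adjusted p = 0.0351), and for BUB1B it was -0.65 ± 0.60 and -1.43 ± 0.24 (adjusted p = 0.0201). CCR2, GZMA and ECM1 also passed without pair 1, at -1.89 ± 0.37, -1.98 ± 0.33 and -2.65 ± 0.48. The median difference from WT over mitosis genes was -0.75 with all pairs and -1.68 without pair 1, against -0.02 and -0.03 over all genes tested. The comparison with WT for cell division genes therefore rests on whether pair 1 is included, and pair 1 and the other pairs lay on opposite sides of WT.

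Against the libraries labelled iE9, 61 of 18073 genes passed (0.338%), and 2680 genes had an unadjusted p under 0.05. By the signed log2 value, 43 responses were higher (0.238%) and 18 lower (0.0996%) in dE9. Without the pairing 0 passed. Without pair 1 of dE9 1411 of 17833 passed (7.91%), and 24 and 112 without dE9 pairs 2 and 3. Among the libraries labelled iE9, those numbered 1 stood apart. Mitochondrially encoded genes took 9.17% of their counts without and 12.81% with PMA, against 3.85% to 5.98% in those numbered 2 and 3. No run left them out, so their part in this comparison was not tested. The interferon-induced gene GBP5 rose in dE9 from 4.13, 1.96 and 1.86 to 153, 119.6 and 59.0 CPM (log2 5.38 ± 0.19), and ran from 35.8 to 40.6 CPM without PMA and 187 to 234 with it in the libraries labelled iE9, whose unstimulated level was higher. The difference in response was 2.89 ± 0.23 (adjusted p = 0.00551), and WT responded by 5.71. CD48 responded by 4.59 ± 0.19 in dE9 and 2.45 in the libraries labelled iE9, where it ran from 16.7 to 36.4 CPM without PMA and 101 to 167 with it. WDFY4, which encodes a BEACH domain protein used in cross-presentation, rose in dE9 from 0.370, 0.280 and 0.0565 to 19.2, 18.5 and 10.4 CPM (6.09 ± 0.40) and stayed low in the libraries labelled iE9, at 0.209 to 2.50 CPM without PMA and 0.497 to 2.94 with it.

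RASL10B, a small GTPase gene, fell in dE9 from 42.7, 41.3 and 52.0 to 7.49, 4.88 and 10.5 CPM (log2 -2.63 ± 0.17), as it did in WT (-2.62), but responded by -0.46 in the libraries labelled iE9, from 15.1 to 25.9 CPM without PMA and 12.7 to 17.3 with it. MCUB, a subunit of the mitochondrial calcium uniporter, fell in dE9 (-0.77 ± 0.09) and responded by 0.41 in the libraries labelled iE9. SFMBT2, a Polycomb-related gene, rose in dE9 by 0.88 ± 0.13 and responded by 2.10 in the libraries labelled iE9. For CD38, an NAD-consuming ectoenzyme, dE9 rose from 23.1, 12.3 and 10.4 to 65.9, 40.6 and 33.6 CPM (1.64 ± 0.14), while the libraries labelled iE9 ran from 57.4 to 79.3 CPM without PMA and 72.9 to 78.4 with it. Among the mitosis and replication lists 0 genes passed in this comparison with all pairs. Their median responses were -2.87 and -2.21 in dE9 and -1.05 and -0.99 in the libraries labelled iE9. Mitosis medians of pairs 1, 2 and 3 were -1.01, -3.25 and -4.20 in dE9 and -1.275, -0.79 and -1.11 in the libraries labelled iE9. Passing genes of these lists were not counted without pair 1 of dE9, so the 0 does not show that the responses were alike.

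**Figure D4:**
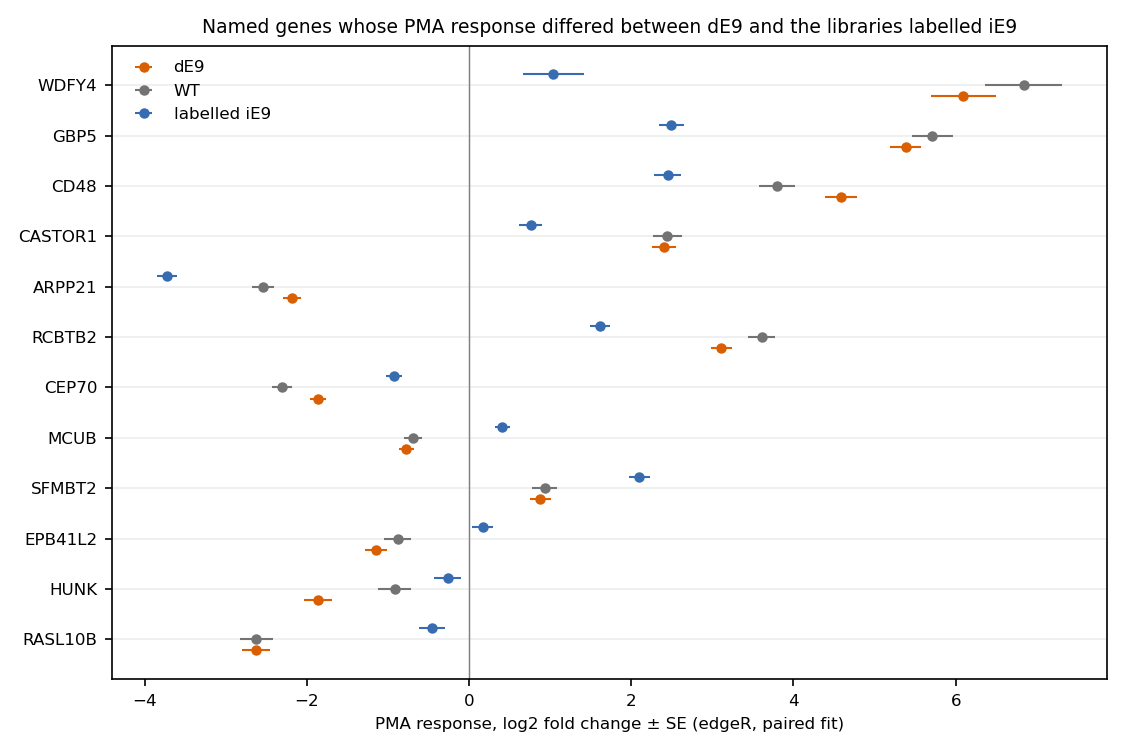
PMA response (log2 fold change with its SE from the paired fit) in dE9, WT and the libraries labelled iE9 for 12 genes whose response differed between dE9 and the libraries labelled iE9. For WDFY4, GBP5, CASTOR1 and RASL10B the WT value lay nearer to dE9 (for RASL10B -2.62 against -2.63) than to the libraries labelled iE9 (-0.46).

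Markers of other cell types were examined because some rose with PMA. Summed over a list, T cell markers ran from 3172 to 4855 TPM without and 7049 to 8268 TPM with PMA, with 8 of 12 tested higher (5 without the pairing). B cell markers ran from 9.24 to 43.1 and 15 to 217 TPM (1 of 3 tested higher), mostly from CD79A, and FCRLA was at 0 in all 6 libraries. Mast cell and basophil markers ran from 4.41 to 6.32 and 29.5 to 449 TPM (3 of 5 higher, 1 lower). HDC, the histidine decarboxylase, was at 1.35, 1.08 and 1.0 TPM without and 438, 14.4 and 45.2 TPM with PMA, while FCER1A was at 0.

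Myeloid markers ran from 1.61 to 14.7 and 6.52 to 32 TPM (2 of 3 tested higher, and 1 lower, or 0 without pair 1), and S100A8 was at 0. S100A9, which encodes a partner of the S100A8 protein, was at 23.8, 25.1 and 0.171 TPM in the PMA libraries. Erythroid markers ran from 2.34 to 5.45 and 2.37 to 75.0 TPM (1 of 2 higher, 2 without the pairing), with HBG1 and HBG2 at 0. Natural killer cell markers ran from 4.01 to 5.13 and 6.99 to 11.4 TPM (1 of 2 higher), with KIR2DL3 and KIR3DL1 at 0. Megakaryocyte markers ran from 2.74 to 5.75 and 4.67 to 6.93 TPM (0 of 2), with PF4, PPBP and GP9 at 0. Epithelial markers ran from 1.13 to 1.63 and 0.588 to 29.9 TPM (1 of 2 higher, 0 without the pairing or without pair 1), and fibroblast or endothelial markers from 8.32 to 19.7 and 16.1 to 49.8 TPM (1 of 3 higher, 2 without the pairing or without pair 1), with DCN and LUM at 0. Their part in the results was not tested.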

How the data were processed

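Polyadenylated RNA of 16 libraries was sequenced, and the 6 dE9 libraries were compared in a fit over all of them. The submitters' processing notes name Salmon, DESeq2 and hg38, without versions. Strandedness is not given in the sources used. The authors deposited estimated counts, TPM values and transcript lengths (used as a numeric score for an offset) per transcript, and a gene table of TPM values whose 16 columns each matched 1 library (0 unused).

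Transcripts matched GENCODE release 29 (205870 of 205870, in 58295 genes). Gene sums of the deposited estimated counts were rounded to whole numbers. No replicates agreed within sampling noise (lowest chi-square per degree of freedom 7.55). edgeR 4.0.16 in R 4.3.3 fitted 8 pair intercepts and 1 PMA coefficient per line (5 residual degrees of freedom, TMM, two-sided quasi-likelihood F test). filterByExpr kept 18073 of 33304 genes with a count. Same-numbered dE9 libraries correlated in their deviations (0.24 to 0.305) and were therefore taken as pairs. This comes from the data, not from the labels, which leave the pairing open. Differently numbered dE9 libraries gave -0.189 to -0.042. Deviations from a group mean cancel within the group, which pushes these values down, so they are no separate support. In WT the same-number value was 0.073 and in iE9 0.19 to 0.441.

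The members, the 36 pathway lists, 9 marker lists and all rules were chosen with earlier results of these data known. Named genes were HDAC7, CD69, CD28, IL2RA, CD5, NR4A1 and CD3E; the 8 per direction with the largest fold, and with the largest CPM difference, called in 3 of 3 pairs without overlap at a mean of at least 5 CPM; the 6 with the most (mean CPM of at least 10) and least (log2 of at least 2) pair spread; up to 4 per list by smallest p; and up to 6 per direction for a difference between lines. Other list members are named after their values were seen, and some genes are not reported here. Alternatives were no pairing, dE9 libraries alone, median-ratio factors, no filter, a length offset, DESeq2 1.42.0 and leaving out pairs or, added after seeing the data, single libraries. RefSeq promoters (GRCh38.p14) were matched by symbol, for 11367 of 18055 symbols tested, and searched on both strands for an EGR motif (GCGNGGGCG), the AP-1, E-box, E2F, CHR and CCAAT motifs spelled above, an SRF CArG box and an NF-kB site, 8 in all. Matches may overlap.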

Additional observations from a re-analysis of the deposited data

Results flagged for a closer look

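For 15 named genes the PMA response of dE9 differed from that of the libraries labelled iE9 by the test of the difference itself (edgeR, paired fit). The response was higher in dE9 for WDFY4 (log2 difference 5.06 ± 0.58), GBP5 (2.89 ± 0.23), CD48 (2.14 ± 0.24), GZMA (1.70 ± 0.25), CASTOR1 (1.65 ± 0.20), ARPP21 (1.54 ± 0.16), RCBTB2 (1.50 ± 0.18), CD38 (1.40 ± 0.19) and ICAM3 (0.98 ± 0.15). For ARPP21 this was a smaller fall. The response, as a signed log2 value, was lower in dE9 for RASL10B (-2.17 ± 0.23, a larger fall), HUNK (-1.60 ± 0.24), EPB41L2 (-1.31 ± 0.19), SFMBT2 (-1.22 ± 0.18), MCUB (-1.18 ± 0.13) and CEP70 (-0.94 ± 0.14). Their adjusted p ran from 0.00551 (GBP5) to 0.0437 (ICAM3 among others), and none was called without the pairing.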

How the results depend on the processing

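Of 189 named genes, 166 kept the direction and call of their PMA response in dE9 in every alternative run, 23 lost or gained a call in at least 1, and 0 reversed. The 4065 higher and 4109 lower genes became 3082 and 2978 without the replicate block (pairing), and 2685 and 2670 with the block in the 6 dE9 libraries alone, which leave 2 residual degrees of freedom. Leaving out a dE9 pair gave 3016 to 4112 higher and 3246 to 4365 lower genes, and leaving out a single library without the block 2363 to 3328 (2637, 2524 and 2363 without unstimulated libraries 1, 2 and 3, and 3328, 2617 and 2572 without PMA libraries 1, 2 and 3) and 2192 to 3385 (2375, 2547, 2445, 3385, 2192 and 2425 in the same order). Against WT, 0 genes became 39 with no filter, 1 with DESeq2, and 0 to 215 without a pair (215 without pair 1) or 0 to 22 without a single library (22 without PMA library 1). Against the libraries labelled iE9, 61 became 0 without the block, 1028 with no filter, 2 with the length offset, 623 with DESeq2, 24 to 1411 without a pair (1411 without pair 1, 24 without pair 2, 112 without pair 3) and 0 to 461 without single libraries (461 without PMA library 1, 15 without PMA library 3). The causes were not tested. The exon 9 difference of -3.23 points ranged from -4.76 to -1.15 without a pair.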
